A study of Mus musculus with 12 samples.

Results

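The colony-stimulating factor 1 receptor (CSF1R) axis was followed through 9 genes: the receptor Csf1r, its ligands Csf1 and Il34, the transcription factors Spi1, Irf8, Runx1, Mef2a and Mef2c, and the myeloid gene Aif1. The genes were matched by symbol to Ensembl mouse identifiers, and all 9 were found among the 25442 genes that both count tables hold. CSF1R is a receptor tyrosine kinase on microglia and other macrophages, whose survival depends on it. Its ligands CSF1 and IL-34 come from other cells of the brain, with neurons known as a main source of IL-34 and glial cells as a source of CSF1. PU.1 (the product of Spi1), IRF8 and RUNX1 are factors of the myeloid lineage, MEF2A and MEF2C act in both microglia and neurons, and Aif1 codes for Iba1, the calcium-binding protein used to stain microglia.

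Hippocampal cells of male C57Bl6/J mice were sorted with magnetic beads, first with ACSA-2, an antigen of the astrocyte surface, and then with CD11b, an integrin of myeloid cells, from the cells left over. The mice had received an adeno-associated virus in both CA1 areas at 2 months of age, which carried either the adenosine A2A receptor (AAV-A2A) or green fluorescent protein (AAV-GFP) behind GfaABC1D, a promoter active in astrocytes, and were studied at 4 months, 2 months after injection. There were 12 libraries in 4 groups of 3: ACSA-2 AAV-GFP (GFP-303, GFP-306 and GFP-307), ACSA-2 AAV-A2A (A2A-309, A2A-310 and A2A-313), CD11b AAV-GFP (GFP-2328, GFP-2329 and GFP-2331) and CD11b AAV-A2A (A2A-2343, A2A-2344 and A2A-2347). Values of a group are given in this order. All mice therefore carried a virus, and no library came from an animal without one. The supplement of the study counts animals as the replicates of its astrocyte sequencing, while the labels do not tell whether a number is 1 animal or a pool, so p-values measure the spread between libraries. The virus reached CA1 whereas the cells came from the dissociated hippocampus. ACSA-2 and CD11b libraries carry different numbers and stand in separate tables, so that fraction, table and set of animals cannot be told apart.

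The total count on genes was between 33937067 and 49217553 in ACSA-2 libraries and between 36098295 and 53206974 in CD11b libraries. Levels are given as CPM, which are counts divided by library size, with TMM factors computed within each fraction. Adora2a, the gene carried by AAV-A2A, was at 24.5, 23.0 and 25.1 CPM in the ACSA-2 AAV-GFP libraries and at 757, 656 and 945 CPM in the ACSA-2 AAV-A2A libraries (log2 FC 5.02, edgeR adjusted p = 1.55e-05), as the labels state. In CD11b libraries it was at 3.96 to 8.07 CPM with AAV-GFP and at 16.3 to 43.3 CPM with AAV-A2A (log2 FC 2.20, edgeR adjusted p = 0.28, DESeq2 adjusted p = 0.0247). The 8 astrocyte markers summed to between 22333 and 36792 CPM in ACSA-2 libraries, led by Aldoc, and to between 276 and 515 CPM in CD11b libraries. The 10 microglia markers summed to between 320 and 563 CPM in ACSA-2 libraries and to between 9461 and 69193 CPM in CD11b libraries. The CD11b libraries stood apart in choroid plexus and ependymal genes, led by Ttr: their sum was 76661, 62184 and 31828 CPM in GFP-2328, GFP-2329 and A2A-2347, and between 15.3 and 99.2 CPM in the other 3. The summed microglia markers were lowest in those 3 libraries (9461, 19489 and 19411 CPM, against 40089 to 69193 CPM in the others). In CD11b libraries neuronal genes summed to 22.8 to 106 CPM with AAV-GFP and 4.66 to 9.78 CPM with AAV-A2A, and erythrocyte genes, led by Hbb-bs, to 865 to 5450 and 55.0 to 217 CPM. Border macrophage genes, led by F13a1, were at 58.7 to 238 CPM with AAV-GFP and 166 to 279 CPM with AAV-A2A. Endothelial genes, led by Slco1c1, were at 626 to 2293 CPM with AAV-GFP and 357 to 1017 CPM with AAV-A2A. Their median log2 FC was -1.52, against -0.05 over all genes. None of the 6 was called by edgeR, which called 0.0% of all genes in this comparison. With DESeq2, 3 of the 6 had an adjusted p below 0.05, where it called 2.46% of all genes. Monocyte and neutrophil genes lay between 109 and 493 CPM and oligodendrocyte genes (Cnp) between 147 and 269 CPM in CD11b libraries.

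Between the fractions, 7 of the 9 genes were lower in ACSA-2 than in CD11b libraries, Il34 was higher, and Csf1 did not pass the test. A gene was called where its log2 FC was beyond 0.32 in size and its edgeR adjusted p, over all tested genes, was below 0.05. Of the 18602 genes tested 54.1% were called, 24.6% higher and 29.4% lower in ACSA-2. The 8 called genes were also those without overlap between the 6 libraries of each fraction, which held for 31.6% of all genes (15.8% in each direction). With DESeq2 the same 8 were called, where 52.9% of all genes were. The median log2 FC was -4.49 over the 9 genes and -0.13 over all genes. In such bulk samples, fewer cells of a type and less RNA per cell cannot be told apart.

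**Figure D1:**
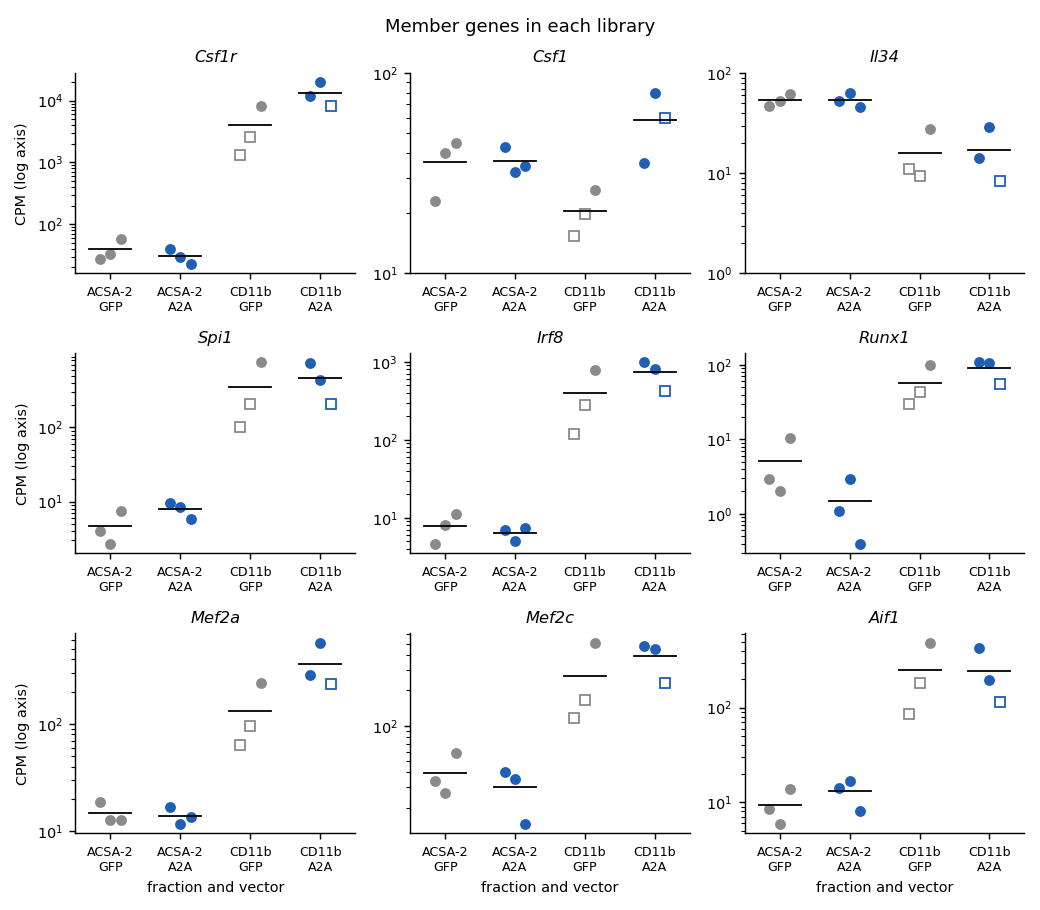
Level of the 9 genes in each library, in CPM scaled over all 12 libraries (log axis, whose range differs between panels), by fraction and vector. Grey marks AAV-GFP, blue AAV-A2A, bars are means of 3 libraries, and open squares are the 3 CD11b libraries with high Ttr; the 7 genes lower in ACSA-2 show no overlap between fractions, Il34 is reversed and Csf1 overlaps.

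Csf1r (ENSMUSG00000024621, chromosome 18) had the largest difference between fractions of the 9. It was at 26.9, 32.7 and 56.8 CPM in the ACSA-2 AAV-GFP libraries and at 38.9, 29.3 and 23.1 CPM in the ACSA-2 AAV-A2A libraries. In CD11b libraries it was at 1394, 2606 and 7833 CPM with AAV-GFP and at 11534, 18964 and 8898 CPM with AAV-A2A. Each CD11b library was thus above each ACSA-2 library (log2 FC of ACSA-2 against CD11b -7.72, SE 0.58, edgeR adjusted p = 2.07e-06). Within the CD11b fraction the 3 AAV-A2A libraries also lay above the 3 AAV-GFP libraries, with means of 13132 ± 5220 and 3944 ± 3422 CPM (SD, n = 3). That difference did not pass the test (log2 FC 1.74, SE 0.83, edgeR adjusted p = 0.352, DESeq2 adjusted p = 0.149), and when single libraries were left out it ran from 1.34 without GFP-2328 to 2.72 without GFP-2331. Within ACSA-2 the vectors overlapped (log2 FC -0.35, SE 0.32, edgeR adjusted p = 0.761). The exons of Csf1r share 873 bases with Hmgxb3 on the opposite strand, and the strand setting of the counting is not given in the sources used here, so its count is uncertain by the reads that fall there.

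The 2 ligands differed in where they were found. Il34 (ENSMUSG00000031750, chr8:110741829-110805924, GRCm38) was at 45.8, 52.0 and 60.8 CPM in ACSA-2 AAV-GFP libraries and 52.1, 63.0 and 47.0 CPM in ACSA-2 AAV-A2A libraries. In CD11b libraries it was at 11.6, 9.53 and 26.8 CPM with AAV-GFP and 13.5, 27.9 and 9.00 CPM with AAV-A2A. All ACSA-2 libraries lay above all CD11b libraries (log2 FC 1.70, SE 0.35, edgeR adjusted p = 0.00166), and the vectors overlapped in both fractions (log2 FC 0.03, SE 0.21 in ACSA-2, and 0.08, SE 0.59 in CD11b). Neuronal genes, which a main source of Il34 would carry, summed to 11.3 to 70.9 CPM in ACSA-2 libraries, with Snap25 the most abundant at 4.15 to 40.5 CPM. The part of neuronal RNA in the Il34 level was not tested. Its exons share 97 bases with Gm15894 and Gm15895 on the opposite strand.

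Csf1 (ENSMUSG00000014599, chr3:107741048-107760469) was at 22.6, 39.3 and 44.2 CPM in ACSA-2 AAV-GFP libraries and 42.5, 32.2 and 35.2 CPM in ACSA-2 AAV-A2A libraries, with no separation of the vectors (log2 FC 0.05, SE 0.28, edgeR adjusted p = 0.977). In CD11b libraries it was at 16.2, 20.3 and 25.2 CPM with AAV-GFP and at 34.1, 76.1 and 65.1 CPM with AAV-A2A. Those groups did not overlap, with means of 20.6 ± 4.53 and 58.4 ± 21.8 CPM (SD, n = 3). Csf1 had the smallest unadjusted p of the 9 in this comparison. It did not pass the test over all genes (log2 FC 1.51, SE 0.38, edgeR adjusted p = 0.28, DESeq2 adjusted p = 0.0574). The log2 FC of Csf1 in ACSA-2 against CD11b was 0.82 in AAV-GFP libraries, -0.62 in AAV-A2A libraries and 0.07 (SE 0.25, edgeR adjusted p = 0.825) over all. Within each library, the ratio of Csf1 to Il34 per kb of exon was 0.183 to 0.303 in ACSA-2 libraries without separation of the vectors, 0.350 to 0.791 in CD11b AAV-GFP libraries and 0.936 to 2.68 in CD11b AAV-A2A libraries. Il34 was thus above Csf1 per kb in each ACSA-2 and each CD11b AAV-GFP library, and Csf1 above Il34 in 2 of 3 CD11b AAV-A2A libraries.

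Of the lineage factors, Spi1 (ENSMUSG00000002111, chr2:91082390-91115756), whose product PU.1 is an ETS factor needed to form myeloid cells, was at 107, 214 and 729 CPM in CD11b AAV-GFP libraries and 696, 414 and 225 CPM in CD11b AAV-A2A libraries. In ACSA-2 it was at 3.90, 2.64 and 7.44 CPM with AAV-GFP and 9.40, 8.35 and 6.02 CPM with AAV-A2A. The fractions were separate (log2 FC -6.03, SE 0.59, edgeR adjusted p = 1.14e-05) and the vectors overlapped in each (log2 FC 0.76, SE 0.47 in ACSA-2, and 0.35, SE 0.78 in CD11b). Irf8 (ENSMUSG00000041515, chr8:120736358-120756694), a partner of PU.1 on shared DNA sites, was at 127, 286 and 769 CPM in CD11b AAV-GFP libraries, 938, 778 and 458 CPM in CD11b AAV-A2A libraries and 4.50 to 11.0 CPM in ACSA-2 libraries. It too separated the fractions (log2 FC -6.24, SE 0.52, edgeR adjusted p = 4.24e-06) and not the vectors (log2 FC -0.27, SE 0.43, and 0.88, SE 0.70). Runx1 (ENSMUSG00000022952, chr16:92601466-92826149), a factor of blood formation, was at 31.5, 44.0 and 97.6 CPM in CD11b AAV-GFP libraries and 103, 101 and 60.1 CPM in CD11b AAV-A2A libraries. In ACSA-2 it was at 2.90, 2.02 and 10.2 CPM with AAV-GFP and 1.08, 2.96 and 0.399 CPM with AAV-A2A, or 18 to 390 counts, and these overlapped (log2 FC -1.77, SE 0.88, edgeR adjusted p = 0.455, and -0.74 without GFP-307 or -2.77 without A2A-310). Its difference between fractions was smaller than that of Spi1 and Irf8 (log2 FC -4.70, SE 0.61, edgeR adjusted p = 7.70e-05); the genes were not tested against each other. Runx1 shares 106 exonic bases with Gm26626 on the opposite strand.

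The MEF2 factors had the smallest called differences among the genes that were lower in ACSA-2. Mef2a (ENSMUSG00000030557, chr7:67231163-67372858) was at 18.5, 12.7 and 12.6 CPM in ACSA-2 AAV-GFP libraries and 16.7, 11.6 and 13.8 CPM in ACSA-2 AAV-A2A libraries (log2 FC -0.06, SE 0.30). In CD11b it was at 66.2, 97.3 and 235 CPM with AAV-GFP and 272, 546 and 257 CPM with AAV-A2A, which did not overlap (log2 FC 1.43, SE 0.59, edgeR adjusted p = 0.309). With factors computed over all 12 libraries the groups of Mef2a met, at 242 CPM in GFP-2331 and 236 CPM in A2A-2347. Mef2c (ENSMUSG00000005583, chr13:83504034-83667080), a factor that restrains microglial activation, was at 123, 169 and 498 CPM in CD11b AAV-GFP libraries and 461, 434 and 252 CPM in CD11b AAV-A2A libraries, which overlapped (log2 FC 0.54, SE 0.60, edgeR adjusted p = 0.683). In ACSA-2 it was at 33.1, 26.3 and 57.5 CPM with AAV-GFP and 39.5, 35.2 and 14.7 CPM with AAV-A2A. The differences between fractions were -3.93 (SE 0.38, edgeR adjusted p = 1.02e-05) for Mef2a and -3.22 (SE 0.44, edgeR adjusted p = 0.000107) for Mef2c on the log2 scale. Per kb, the ratio of Mef2c to Mef2a within a library was 1.63 to 1.98 in CD11b AAV-GFP libraries and 0.741 to 1.58 in CD11b AAV-A2A libraries. Mef2a shares 302 exonic bases with Lysmd4 on the opposite strand.

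Aif1 (ENSMUSG00000024397, chr17:35170991-35176068) was at 89.3, 186 and 474 CPM in CD11b AAV-GFP libraries and 407, 188 and 125 CPM in CD11b AAV-A2A libraries, where its log2 FC was near 0 (-0.06, SE 0.71, edgeR adjusted p = 0.976). In ACSA-2 it was at 8.38, 5.78 and 13.5 CPM with AAV-GFP and 14.0, 16.9 and 8.19 CPM with AAV-A2A (log2 FC 0.50, SE 0.41, edgeR adjusted p = 0.728). The fractions were separate (log2 FC -4.49, SE 0.51, edgeR adjusted p = 3.06e-05). Within each CD11b library the ratio of Csf1r to Aif1 per kb was 4.14, 3.72 and 4.38 with AAV-GFP. With AAV-A2A it was 7.52, 26.8 and 18.9. In ACSA-2 libraries the vectors lay the other way, also without overlap. The ratio there was 0.851, 1.502 and 1.114 with AAV-GFP and 0.737, 0.460 and 0.747 with AAV-A2A. The exons of Csf1r and Aif1 differ in length (5774 and 1532 bases). With length and GC trends removed, the log2 FC of Aif1 in CD11b turned positive. The ratio was not tested, and the share of other gene pairs whose ratio separates the vectors was not counted. Taken singly, Csf1r and Aif1 each overlapped between the vectors in ACSA-2 libraries, as Aif1 did in CD11b libraries.

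Upstream sequence from RefSeq (GRCm38.p6) was matched for 6 of the 9 genes, at 10 annotated starts, and 250 bases before each start were searched on both strands for the letters GAGGAAGT (PU.1), TGTGGT (RUNX core), TTCNNNGAA (the GAS element of STAT factors) and GAAA, any 2 bases and GAAA (the ISRE element of IRF factors). Of 32851 promoters of the same length, 2.44% held the PU.1 letters, 14.0% the RUNX letters, 7.02% the GAS letters and 2.98% the ISRE letters. Irf8, Aif1 and Csf1 are shown because the first had the largest difference between fractions among the factors with a sequence, the second holds the only ISRE match, and the third was the ligand that differed most by vector in CD11b libraries. Capitals mark matches: at -171 to -163 and -153 to -145 from the start of Irf8 (GAS, on the strand shown, 2 matches that do not overlap), and at -157 to -148 from the start of Aif1 (ISRE). Csf1 held none of the 4. One start of Mef2c held a GAS match at -157 to -149, no start held a PU.1 or RUNX match, and a match is a description of the letters only.
Irf8 (chr8:120736108-120736357, plus strand): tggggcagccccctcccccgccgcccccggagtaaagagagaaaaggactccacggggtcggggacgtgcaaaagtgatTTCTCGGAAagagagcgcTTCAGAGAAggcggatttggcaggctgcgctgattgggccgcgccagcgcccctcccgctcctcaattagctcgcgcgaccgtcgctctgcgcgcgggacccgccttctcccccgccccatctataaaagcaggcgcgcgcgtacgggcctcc
Aif1 (chr17:35176053-35176302, minus strand): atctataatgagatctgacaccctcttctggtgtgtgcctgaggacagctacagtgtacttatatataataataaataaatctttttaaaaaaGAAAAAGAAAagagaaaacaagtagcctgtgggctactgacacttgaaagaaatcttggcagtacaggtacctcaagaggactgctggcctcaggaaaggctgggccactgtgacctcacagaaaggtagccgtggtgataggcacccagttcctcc
Csf1 (chr3:107760470-107760719, minus strand): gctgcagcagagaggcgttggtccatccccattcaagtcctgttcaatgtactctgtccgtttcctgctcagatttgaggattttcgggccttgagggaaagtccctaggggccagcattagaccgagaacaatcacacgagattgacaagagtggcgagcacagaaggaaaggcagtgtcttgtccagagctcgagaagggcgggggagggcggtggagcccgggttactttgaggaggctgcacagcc

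Per kb of exon, the order of the 9 genes differed between fractions. In CD11b libraries Csf1r was first with a median of 1407 CPM per kb, followed by Aif1 (123) and Spi1 (119), Irf8 (86.0), Mef2c (21.8) and Mef2a (16.3), and Runx1 (6.47), Il34 (6.43) and Csf1 (5.84). Csf1r was above Aif1, Spi1 above Irf8, Irf8 above Mef2c and Mef2a above Runx1 in 6 of 6 libraries. The pairs Aif1 and Spi1, Mef2c and Mef2a, and Il34 and Csf1 kept their order in 4 of 6 and Runx1 and Il34 in 2 of 6, so these neighbours did not differ beyond their spread. In ACSA-2 libraries Il34 was first with 26.8 CPM per kb, above Aif1 (7.29) in 6 of 6 libraries, followed by Csf1 (7.03), Csf1r (5.40), Spi1 (2.503), Mef2c (2.19), Irf8 (1.02), Mef2a (0.898) and Runx1 (0.208). There Csf1r was above Spi1 and Mef2a above Runx1 in 6 of 6 libraries, Mef2c was above Irf8 in 5 of 6, and the other neighbours changed places in 2 or 3 libraries.

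Because ACSA-2 libraries also held microglia markers, the genes were expressed per 100 counts of the geometric mean of the 10 markers (among them P2ry12, Tmem119, Cx3cr1, Fcrls, Siglech, Itgam, C1qa, Ctss and Gpr34). On that scale Csf1r, Spi1, Irf8 and Runx1 overlapped between fractions, with medians in ACSA-2 that were 0.659, 1.90, 1.58 and 3.05 times those in CD11b. Aif1, Mef2a and Mef2c did not overlap, and were 4.58, 7.32 and 11.0 times higher in ACSA-2. Csf1 and Il34 were 82.8 and 345 times higher, the largest of these ratios. The marker mean itself was 16.2 to 28.9 CPM in ACSA-2 and 722 to 4030 CPM in CD11b libraries. A gene at equal CPM in both fractions therefore lies far higher in ACSA-2 on this scale. The share of all genes without overlap between fractions on this scale was not counted, so the separation of these members is a description only. Csf1 had a log2 FC of 0.07 between fractions in CPM. Medians per 100 marker counts in ACSA-2 and CD11b were also 282 and 3.36 for Irf3 and 721 and 5.53 for Cldn5, an endothelial gene. Border macrophage genes summed to 64.9 to 116 CPM in ACSA-2 libraries and to 58.7 to 279 CPM in CD11b libraries. The part of microglial and border macrophage RNA in the ACSA-2 levels was not tested.

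**Figure D2:**
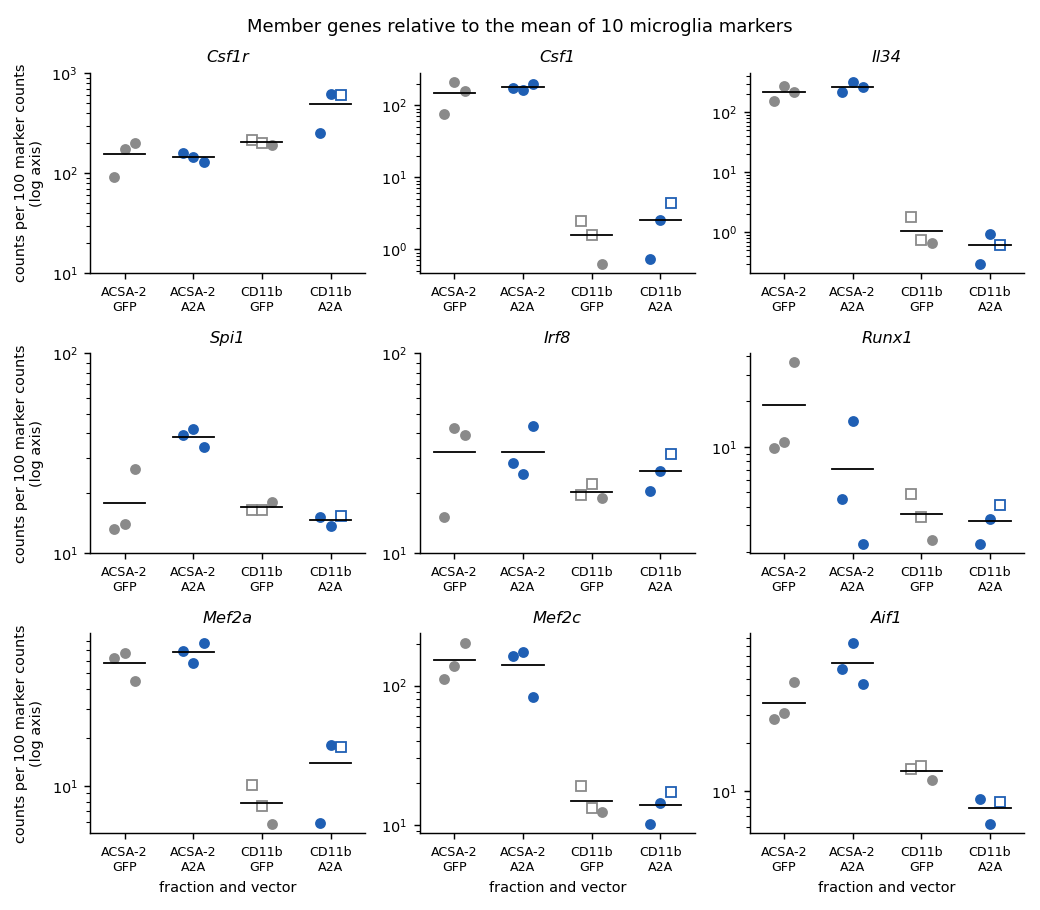
The 9 genes per 100 counts of the geometric mean of 10 microglia markers in each library (log axis, whose range differs between panels), by fraction and vector; colours, bars and squares mark vectors, means of 3 libraries and high Ttr. Csf1r lies between 91.0 and 201 in ACSA-2 and between 193 and 627 in CD11b, while Il34 lies between 155 and 315 in ACSA-2 and between 0.295 and 1.79 in CD11b.

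Within the CD11b fraction the vectors did not overlap on the same scale in 3 of the 9 genes, 1 higher and 2 lower with AAV-A2A, against 0.903% and 5.79% of all tested genes. Csf1r was at 215, 202 and 193 per 100 marker counts with AAV-GFP and at 252, 627 and 608 with AAV-A2A. Aif1 was at 13.8, 14.4 and 11.7 with AAV-GFP and at 8.88, 6.21 and 8.54 with AAV-A2A. Spi1 was at 16.4, 16.6 and 18.0 with AAV-GFP and at 15.2, 13.7 and 15.4 with AAV-A2A. Csf1r was thus higher, and Aif1 and Spi1 lower, relative to the markers with AAV-A2A, whereas Csf1 (0.622 to 2.49 and 0.744 to 4.45) and Mef2a (5.79 to 10.2 and 5.94 to 18.1) overlapped. In ACSA-2 libraries Spi1 lay the other way on this scale, at 13.2, 14.0 and 26.4 with AAV-GFP and 38.8, 41.7 and 34.1 with AAV-A2A. It was the only 1 of the 9 genes without overlap there, a share near the 12.3% of all genes that were without overlap and higher. Csf1r and Aif1 overlapped. In CPM, Spi1 overlapped too in ACSA-2 libraries (7.44 in GFP-307 and 6.02 in A2A-313). With libraries scaled to these markers in edgeR, no member was called, and the log2 FC was 1.29 (SE 0.57, adjusted p = 0.598) for Csf1r, 0.72 for Csf1, 0.82 for Mef2a, -0.20 for Spi1 and -0.75 for Aif1. That scaling moved the median of all genes to -1.07, so relative to all genes the values were 2.36 for Csf1r, 1.79 for Csf1, 1.89 for Mef2a, 0.87 for Spi1 and 0.32 for Aif1.

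For the comparison of AAV-A2A with AAV-GFP, which asks what the receptor in astrocytes changes in each fraction, none of the 9 genes was called in ACSA-2 by edgeR or DESeq2, where edgeR called 3.36% of 16451 genes and DESeq2 6.85%. None of the 9 had an unadjusted p under 0.05 in edgeR (2141 of the 16451 genes did) and in none were the groups without overlap (19.6% of all genes). Their log2 FC had a median of -0.06, against 0.02 over all genes, and 4 of 9 were positive. In CD11b none of the 9 was called by edgeR or DESeq2, where edgeR called 0.0% and DESeq2 2.46% of genes. With edgeR, Csf1 and Mef2a had an unadjusted p under 0.05 (16.0% of all genes did). Csf1, Csf1r and, when scaled within the fraction, Mef2a were without overlap and higher with AAV-A2A, that is 3 of 9 against 12.6% of all genes. Of the 9, 8 were positive, with a median of 0.61 against -0.05 over all genes. That shift was not particular to the members. The median in CD11b was 0.54 for the microglia markers and 0.65 for the border macrophage genes. Among the lists described below it was 0.66 for other myeloid factors, 0.74 for signalling genes and 0.86 for ETS and RUNX genes. It was lower for IRF (0.30) and MEF2 list genes (0.12). The high Ttr libraries were 2 of 3 with AAV-GFP and 1 of 3 with AAV-A2A. In the 3 high Ttr libraries the log2 FC was 1.85 for Csf1, 1.66 for Mef2a and 2.16 for Csf1r, and in the 3 low Ttr libraries it was 1.13, 0.81 and 0.97. Both sets were formed after seeing the data and hold 1 group of a single library whose spread is assumed. With the high Ttr libraries edgeR called 11.4% of all genes, with Csf1 and Mef2a among them, and with the low Ttr libraries it called no member. The part of the choroid plexus, neuronal, erythrocyte and endothelial genes in these differences was not tested.

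**Figure D3:**
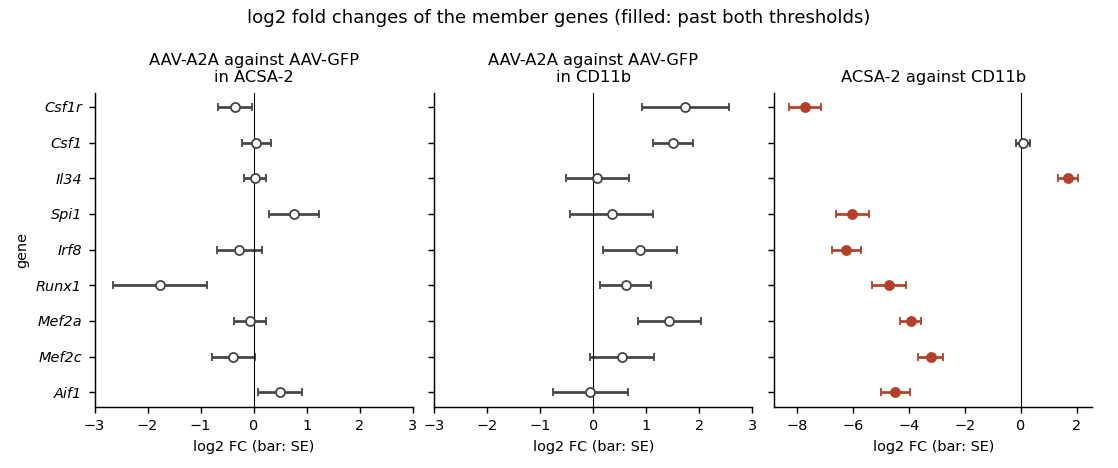
Log2 FC of the 9 genes with SE bars (edgeR) for AAV-A2A against AAV-GFP in ACSA-2 and in CD11b, and for ACSA-2 against CD11b, with filled symbols for genes past both thresholds; the axis of the last panel is wider. No gene is filled in the first 2 panels, and 8 of 9 are in the last.

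The vector effect was also compared between fractions, as the effect in ACSA-2 less that in CD11b. None of the 9 genes was called by edgeR or DESeq2, against 0.403% of 18602 genes with edgeR and 9.02% with DESeq2. In edgeR, 4 of 9 had an unadjusted p under 0.05 (19.6% of all genes did). These were Csf1 (-1.49, SE 0.50, adjusted p = 0.142), Csf1r (-2.13, SE 0.87, adjusted p = 0.21), Mef2a (-1.54, SE 0.68, adjusted p = 0.238) and Runx1 (-2.43, SE 1.07, adjusted p = 0.239). In all of them the vector effect, not the level, was the lower one in ACSA-2. The result rested in part on 1 library: without GFP-2331, Csf1r (-3.17, edgeR adjusted p = 0.0263) and Mef2a (-2.30, adjusted p = 0.0336) were called, and so were 6.61% of all genes. GFP-2331 was the only CD11b AAV-GFP library with low Ttr. Without it that group held high Ttr libraries only, so vector and Ttr level were partly aligned in this fit. With the low Ttr CD11b libraries alone Csf1r was at -1.37 and Mef2a at -0.92.

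The genes around the axis were described with 5 lists. Of 21 genes on the ligand side and in signalling of CSF1R, 15 were lower and 3 higher in ACSA-2 than in CD11b (29.4% and 24.6% of all genes), with a median log2 FC of -2.53. Among the largest were Inpp5d (-7.67), a phosphatase that removes a lipid signal of PI3K, and the kinase Syk (-6.97). Higher in ACSA-2 were Ptprz1 (5.63), a receptor phosphatase that binds IL-34, Fyn (1.61) and Src (0.73, edgeR adjusted p = 0.0297), which are kinases. The call of Src was lost without 7 of the 12 libraries, each left out in turn, and in AAV-A2A libraries alone Src was at -0.60. Trem2, a receptor that signals through Tyrobp, was the most abundant of the list over the CD11b libraries at 337 to 2486 CPM, and Stat3 in ACSA-2 libraries.

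In ACSA-2, 2 of the 21 fell with AAV-A2A and none rose (3.19% and 0.176% of all genes), with a median log2 FC of -0.24. Pik3r1, the regulatory subunit of PI3K, was at 286, 204 and 266 CPM with AAV-GFP and 76.4, 54.3 and 43.5 CPM with AAV-A2A (log2 FC -2.12, SE 0.24, edgeR adjusted p = 0.00248). Stat3, a transcription factor of cytokine signalling, was at 688, 955 and 1063 CPM with AAV-GFP and 411, 185 and 398 CPM with AAV-A2A (log2 FC -1.45, SE 0.31, edgeR adjusted p = 0.0334), a call that was lost without any 1 of the 6 libraries (edgeR adjusted p between 0.0546 and 0.135). The groups of both did not overlap, as for 8 of 21 genes that were lower (10.9% of all genes). In CD11b none of the 21 was called by edgeR and 1 by DESeq2, with 9 at an unadjusted p under 0.05 in edgeR (16.0% of all genes), and 10 were without overlap and higher (12.6% of all genes).

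Of 6 other genes of the MEF2 family and its partners, 2 fell with AAV-A2A in ACSA-2 and none rose (3.19% and 0.176% of all genes), with a median log2 FC of -0.99 against 0.02 over all genes. MEF2 factors are held in check by the class IIa histone deacetylases, of which Hdac4 was the most abundant gene of that list in ACSA-2. Hdac4 was at 334, 345 and 372 CPM with AAV-GFP and 126, 133 and 130 CPM with AAV-A2A (log2 FC -1.43, SE 0.15, edgeR adjusted p = 0.00211). Mef2d was at 79.4, 68.0 and 81.8 CPM with AAV-GFP and 27.5, 21.8 and 15.7 CPM with AAV-A2A (log2 FC -1.82, SE 0.25, edgeR adjusted p = 0.00407). Both calls held without each library in turn. The members Mef2a and Mef2c did not pass the test. In CD11b libraries Mef2d, the most abundant of the list over both vectors, was at 65.7, 73.1 and 121 CPM with AAV-GFP and 145, 186 and 139 CPM with AAV-A2A, without overlap but not called (log2 FC 0.85, edgeR adjusted p = 0.302). Between fractions, Mef2d (-1.51) and Hdac5 (-1.67) were lower in ACSA-2, and 4 of 6 were higher (29.4% and 24.6% of all genes), among them Hdac4 (1.53) and Hdac9 (1.28). Mef2b, also called higher (2.77), had 0 to 27 counts in CD11b libraries, ranged from 1.87 without GFP-307 to 5.61 without A2A-2347, and lost its call without 10 of the 12 libraries, each left out in turn.

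**Figure D4:**
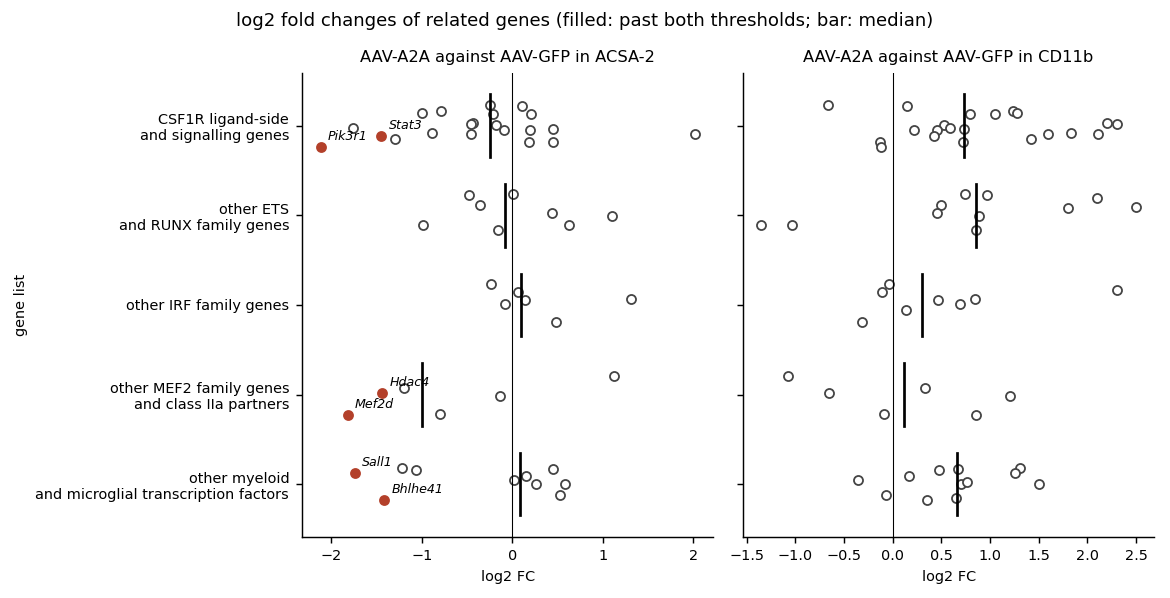
Log2 FC of the genes of 5 lists around the axis for AAV-A2A against AAV-GFP in ACSA-2 and CD11b; each circle is a gene, filled where it passed both thresholds, and bars are medians. The 6 filled genes, Pik3r1, Stat3, Mef2d, Hdac4, Sall1 and Bhlhe41, are all below 0 in ACSA-2, and none is filled in CD11b.

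Of 12 other transcription factors of myeloid cells and microglia, 10 were tested in ACSA-2, where 2 fell with AAV-A2A and none rose (3.19% and 0.176% of all genes). Sall1, a factor of microglial identity, was at 72.3, 53.8 and 64.6 CPM with AAV-GFP and 30.4, 8.44 and 18.3 CPM with AAV-A2A (log2 FC -1.74, SE 0.40, edgeR adjusted p = 0.0493). Bhlhe41, a repressor of clock genes, was at 44.3, 36.0 and 53.9 CPM with AAV-GFP and 20.7, 13.3 and 16.4 CPM with AAV-A2A (log2 FC -1.41, SE 0.26, edgeR adjusted p = 0.0178). The call of Sall1 was lost without 5 of the 6 libraries and that of Bhlhe41 without 4 of 6, each left out in turn. Relative to the microglia markers, on the scale used above, the median of Sall1 was 177 in ACSA-2 and 12.8 in CD11b. For Bhlhe41 these medians were 121 and 1.45. Mean levels scaled over all 12 libraries were 41.8 and 426 CPM for Sall1, and 31.1 and 33.7 CPM for Bhlhe41. The part of microglial RNA in the ACSA-2 levels of both genes was not tested. Cebpd was the most abundant of the list in ACSA-2 and did not pass the test (log2 FC 0.53, edgeR adjusted p = 0.477). Between fractions 9 of 12 were lower in ACSA-2 and none higher (29.4% and 24.6% of all genes), with Ikzf1 (-7.15) and Tal1 (-4.60, and -6.30 without GFP-303) among them. In CD11b none of the 12 was called by the vector with edgeR or DESeq2, with 1 at an unadjusted p under 0.05 in edgeR (16.0% of all genes).

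Among 11 other ETS and RUNX family genes, 7 were lower and 1, Runx1t1 (1.34), higher in ACSA-2 than in CD11b (29.4% and 24.6% of all genes). Elf4 (-6.60) and Runx3 (-5.51, and -7.49 without GFP-303) were among the largest, and Spib was at 0 counts in 5 of 6 ACSA-2 libraries and at 4 to 115 counts in CD11b libraries. Fli1 was the most abundant of them in CD11b libraries (42.5 to 211 CPM) and Cbfb, which binds DNA with RUNX factors, in ACSA-2 libraries (24.2 to 37.0 CPM). Of 8 other IRF family genes, 7 were lower in ACSA-2 and none higher (29.4% and 24.6% of all genes), among them Irf5 (-6.78) and Irf4, which was at 0 counts in the 3 ACSA-2 AAV-A2A libraries. Irf5 was the most abundant in CD11b (98.3 to 740 CPM) and Irf3 in ACSA-2 (45.1 to 78.6 CPM). Of these, 8 ETS or RUNX and 6 IRF genes were tested in ACSA-2 and all in CD11b, and none was called by the vector with edgeR. With DESeq2, 1 ETS or RUNX gene was called in each fraction and 1 IRF gene in CD11b, and in edgeR 2 and 1 genes had an unadjusted p under 0.05 in ACSA-2 (2141 of the 16451 genes tested) and 2 and 1 in CD11b (16.0% of all genes).

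The genes most like each member over the 12 libraries were taken as those with the smallest root mean square difference of centred log2 CPM, among genes with a mean of at least 5 CPM in a fraction. For Aif1 these were Fcer1g (0.243), Rgs10 and Tyrobp. Spi1 lay nearest to Hhex (0.340), C1qa and Fcrls, and Irf8 to Slc11a1 (0.343), Fcrls and Olfml3. Csf1r lay nearest to Tnfrsf1b (0.413), Pik3ap1 and Nckap1l. Mef2a lay nearest to Adam17 (0.199), Numb and Grk2, Mef2c to Arl4c (0.365), Txnip and 0610040J01Rik, and Runx1, with the poorest likeness of the 9, to St8sia6 (0.560), Tent5c and Gm37352. The ligands had other neighbours, Tef (0.290), Add1 and Llgl1 for Csf1 and Gja4 (0.206), Nbl1 and Pth1r for Il34. The 12 points share 2 fractions, so that these values mostly describe the difference between fractions, and they are given with no test.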

How the data were processed

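Raw read counts per Ensembl gene were deposited by the authors in 1 table per fraction. Per the labels and methods, cDNA was amplified by PCR without molecular identifiers, reads were trimmed with cutadapt 1.10, aligned with STAR 2.5.3 to mm10 and counted with HTSeq 0.6.1p1 on Ensembl release 102. Duplicate reads are therefore included. The 25 unnamed empty columns were not used. Replicates were compared before use and no pair differed by less than counting noise, a measure that covers counting error only.

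Counts were tested with edgeR 4.0.16 (TMM, filterByExpr, robust quasi-likelihood test, R 4.3.3) on all genes, within each fraction and over the 12 libraries. Genes were called at a log2 FC beyond 0.32 in size and a Benjamini-Hochberg adjusted p below 0.05 over all tested genes. Positions and exon lengths are from GENCODE (GRCm38). The models were tested on simulated data. Alternatives were DESeq2 1.42.0, limma-voom (limma 3.58.1), other scalings and filters, a joint fit, and each library left out. Fits by Ttr level, microglia marker scaling and removal of length and GC trends were added after seeing the data. All 9 members are named; list genes are named when called or most abundant, and some items that the rule names are not reported here. The members, lists and markers were chosen with earlier results of these data known.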

Additional observations from a re-analysis of the deposited data

Results flagged for a closer look

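In 3 list genes the effect of the vector differed between the fractions by the interaction term of edgeR, which called 0.403% of 18602 genes (DESeq2 called 9.02%). They were 1 of 21 signalling genes, 1 of 8 IRF and 1 of 6 MEF2 list genes. None of 11 ETS and RUNX genes or 12 other myeloid factors was called. For Mef2d, the difference (ACSA-2 less CD11b) was -2.72 on the log2 scale (SE 0.45, adjusted p = 0.0438), with the values given above. Src was at 40.1, 43.4 and 55.9 CPM in ACSA-2 AAV-GFP and 22.2, 11.1 and 23.4 CPM in ACSA-2 AAV-A2A libraries, against 9.78, 10.9 and 12.5 CPM and 19.9, 40.7 and 28.2 CPM in CD11b libraries, and its difference was -2.77 (SE 0.51, adjusted p = 0.0474). Irf4 had 6, 65 and 28 counts in the ACSA-2 AAV-GFP libraries, 0 in each ACSA-2 AAV-A2A library, 45, 40 and 68 in CD11b AAV-GFP and 195, 218 and 327 in CD11b AAV-A2A libraries (edgeR adjusted p = 0.0438); its fitted value is no bound and is not given. Each of the 3 passed with DESeq2 and limma-voom, and none did in edgeR with size factors (RLE), with total counts or with the low Ttr CD11b libraries alone. Of the 12 libraries left out in turn, the call was lost in 10 for Irf4 and Src and in 9 for Mef2d.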

How the results depend on the processing

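No paired analysis was possible because the groups share no replicate numbers. The count of members called was the same under the alternatives run for each comparison, with 2 exceptions. In CD11b it was 2 in place of 0 with the high Ttr libraries only, and for the vector effect between fractions it ranged from 0 to 2 when each library was left out, with 2 only without GFP-2331. Among members the following signs turned, with no turned value past the threshold. In CD11b these were Il34 with low Ttr libraries (-0.36), high Ttr libraries (-0.22) and microglia marker scaling (-0.80), Spi1 with low Ttr libraries (-0.39) and marker scaling (-0.20), Runx1 with marker scaling (-0.14), Mef2c with low Ttr libraries (-0.15) and marker scaling (-0.092), and Aif1 with limma-voom (0.093) and the length and GC trend removed (0.53). In ACSA-2 the trend removed gave -0.014 for Il34 and 0.032 for Mef2a. Between fractions Csf1 was at -0.62 in AAV-A2A libraries and -0.12 with low Ttr libraries, and Src at -0.60 in AAV-A2A libraries. The interaction of Il34 was at 0.052 with total counts and 0.34 with low Ttr libraries. With each library left out, log2 FC in ACSA-2 ranged from -0.58 to 0.022 for Csf1r, -0.21 to 0.24 for Csf1, -0.094 to 0.14 for Il34, -0.56 to 0.051 for Irf8, -0.20 to 0.13 for Mef2a and -0.64 to 0.00078 for Mef2c. In CD11b it ranged from -0.50 to 0.68 for Il34, -0.11 to 1.48 for Spi1 and -0.66 to 0.81 for Aif1, between fractions from -0.062 to 0.21 for Csf1, and in the interaction from -0.76 to 0.51 for Il34, -0.82 to 0.97 for Spi1 and -0.42 to 1.16 for Aif1. Causes were not tested.

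Over all genes, edgeR called 553 in ACSA-2, against 1263 with DESeq2 (271 higher and 992 lower), 156 in the joint fit and 272 to 448 with a library left out. In CD11b it called 0, against 455 with DESeq2, 2224 with high Ttr and 3 with low Ttr libraries. Between fractions it called 10055, against 4377 in AAV-GFP libraries. For the interaction it called 75, against 1695 with DESeq2, 10 with size factors (RLE), 0 with total counts or low Ttr libraries, 345 with at least 10 counts in every library and 0 to 1286 with a library left out. Fits with a group of 1 library assume that it varies like the others.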
